A study of Arabidopsis thaliana with 357 samples.

Results

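The genes described here are 7 jasmonate (JA) output genes of Arabidopsis thaliana leaves: VSP1 (AT5G24780), VSP2 (AT5G24770), JR1 (AT3G16470), CORI3 (AT4G23600), TAT3 (AT2G24850), FAMT (AT3G44860) and CLH1 (AT1G19670). They were taken by their gene codes from a read count table of 33600 genes, by a rule that uses no measured value. Transcripts were counted by stranded 3′ Tag-Seq, which reads 1 tag near the end of each messenger RNA, in leaves taken before infiltration (0 h) and at 1, 2, 3 h and at 5, 9, 18 h after infiltration with flg22, a peptide of bacterial flagellin that sets off pattern-triggered immunity. There were 17 genotypes, 7 time points and 3 replicates, which gave 119 groups and 357 libraries.

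All plants were in the Col-0 background. In 16 genotypes the loci DDE2, EIN2, PAD4 and SID2 were intact or mutated in every combination, the mutant alleles being sid2-2, pad4-1, ein2-1 and dde2-2. A genotype name gives 1 letter per sector, J for DDE2, E for EIN2, P for PAD4 and S for SID2, as a capital where the gene was intact and in lower case where it was mutated. JEPS was therefore wild type, jEPS the dde2-2 single mutant, Jeps carried only DDE2 intact, and jeps was mutated at all 4 loci. The other genotype, fls2, carried an insertion in the gene of the flg22 receptor and was intact at the 4 loci. Plants were 31 to 32 days old, and leaves were infiltrated by syringe with 1 μM flg22. Leaves at 0 h were not infiltrated, and no mock-infiltrated sample was analysed here, so time after infiltration, the infiltration itself and the time of day cannot be told apart within 1 genotype. Each library pooled 12 leaves from 4 experiments, with 3 leaves from a plant. In whole leaves, fewer cells of a type and less RNA per cell cannot be told apart.

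DDE2 encodes allene oxide synthase, which catalyses an early step of JA synthesis in the chloroplast. The active hormone, jasmonoyl-isoleucine, joins the receptor COI1 to JAZ repressors, which are then degraded and release MYC2 and its relatives to activate their target genes. EIN2 is needed for ethylene signaling, SID2 encodes the enzyme that makes most of the salicylate of infected leaves, and PAD4 is a regulator of defence that works together with EDS1. The 7 genes are used as markers of JA output in leaves. VSP1 and VSP2 encode vegetative storage proteins, VSP2 is an acid phosphatase toxic to some insects, and JR1 encodes a jacalin-related lectin. CORI3 encodes a cystine lyase first found as induced by coronatine, a bacterial mimic of jasmonoyl-isoleucine. TAT3 encodes an enzyme of the tyrosine aminotransferase family, FAMT a methyltransferase that acts on farnesoic acid, and CLH1 a chlorophyllase, which removes the phytol tail from chlorophyll.

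The 300 bases upstream of each annotated transcription start were read from the RefSeq assembly TAIR10.1, and the upstream sequences of VSP1, TAT3 and FAMT are shown because they hold the T/G-box AACGTG, a hexamer that MYC2 is known to bind. The sequences run 5′ to 3′ on the strand of the gene, and the capitals mark the hexamer, which lies in all 3 on the other strand and so reads CACGTT. The window of VSP1 was chr5:8509202-8509501 on the minus strand, that of TAT3 chr2:10585217-10585516 on the minus strand, and that of FAMT chr3:16379271-16379570 on the plus strand.
VSP1: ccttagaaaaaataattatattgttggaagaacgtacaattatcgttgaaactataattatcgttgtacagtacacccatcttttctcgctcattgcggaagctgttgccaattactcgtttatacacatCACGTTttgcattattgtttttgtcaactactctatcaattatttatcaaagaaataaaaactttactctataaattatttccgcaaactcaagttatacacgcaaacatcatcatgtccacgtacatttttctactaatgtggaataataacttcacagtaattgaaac
TAT3: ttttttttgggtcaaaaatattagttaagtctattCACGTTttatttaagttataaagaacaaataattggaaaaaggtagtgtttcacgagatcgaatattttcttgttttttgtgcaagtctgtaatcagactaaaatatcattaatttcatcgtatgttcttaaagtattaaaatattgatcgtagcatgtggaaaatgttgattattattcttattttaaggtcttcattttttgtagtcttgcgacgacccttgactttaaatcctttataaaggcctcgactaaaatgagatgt
FAMT: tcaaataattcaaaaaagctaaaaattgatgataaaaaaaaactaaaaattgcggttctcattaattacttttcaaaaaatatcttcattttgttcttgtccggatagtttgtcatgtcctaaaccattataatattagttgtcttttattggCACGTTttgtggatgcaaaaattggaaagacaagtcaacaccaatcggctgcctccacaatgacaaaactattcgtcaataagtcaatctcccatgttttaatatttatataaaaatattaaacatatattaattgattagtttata
The hexamer began 170 bases before the start of VSP1, 265 before that of TAT3 and 147 before that of FAMT. It was present on either strand in 8.71% of 27443 windows of the same length, so 3 of 7 is a description of these genes and not a test. The G-box CACGTG, which shares 5 letters with the T/G-box and was also searched on both strands, was in 7.09% of all windows, and the core of the GCC box, GCCGCC, in 2.26%. Neither was found in any of the 7 windows, and the windows of VSP2, JR1, CORI3 and CLH1 held none of the 3 motifs. The genes lay at chr5:8507590-8509201 for VSP1, chr5:8500468-8502224 for VSP2, chr3:5595282-5599224 for JR1, chr2:10582074-10585216 for TAT3 and chr1:6803486-6805092 for CLH1, which are on the minus strand, and at chr4:12310379-12313212 for CORI3 and chr3:16379571-16381434 for FAMT, on the plus strand. VSP1 and VSP2 are neighbours with 87.8% identical coding bases and 69.5% over the last 200 bases of the transcripts, nearer to where the tags lie, and as only reads mapping to 1 gene were counted, the share of each of the pair is uncertain.

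The libraries held 372525 to 5130803 reads on genes, with a median of 1275620. Levels are given as normalised read counts, the count of a gene divided by the 90th percentile count of the genes with reads in that library and multiplied by 300, so that a single read stood for 1 to 11.1 normalised counts. As a check of the labels, the DDE2 transcript was at 8.49 to 371 in the 168 libraries with dde2-2 and at 630.0 to 16285 in the other 189, with no overlap. EIN2, PAD4 and SID2 transcripts had medians of 48.6, 25.9 and 7.86 where mutated and of 148, 254 and 317 elsewhere, with overlap. FLS2 transcript had a median of 7.59 in the 21 fls2 libraries and of 129.9 in the other 336. The root genes BGLU23 and BGLU22 together had a median of 2.80, against 52138 for the mesophyll genes CA1, RBCS1A and LHCB1.3. The clock gene CCA1 fell in JEPS from 500.3 ± 95.2 at 0 h to 2.17 ± 3.77 at 1 h, and in fls2 from 444 ± 24.4 to 3.99 ± 4.84 (mean ± SD, n = 3).

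**Figure D1:**
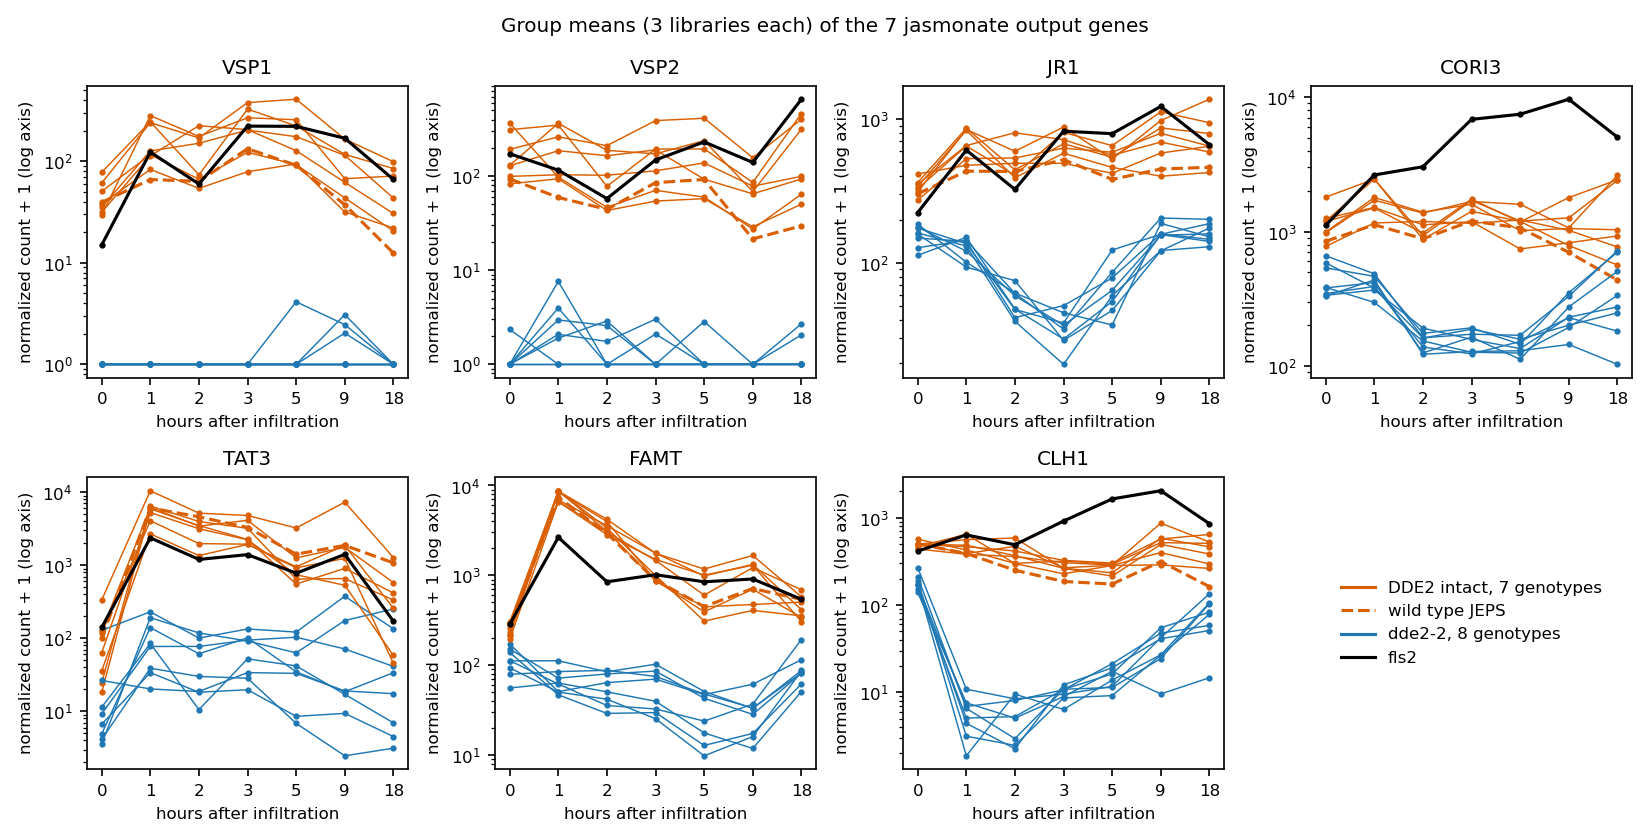
Group means of 3 libraries, as normalised counts plus 1 on a log axis, against hours after infiltration (time points evenly spaced) for each of the 7 genes in all 17 genotypes, with a line for each genotype: orange with DDE2 (dashed for JEPS), blue with dde2-2 and black for fls2. The blue lines lie below the orange ones, at or near 0 counts for VSP1 and VSP2, except where a few meet for TAT3 at 0 and 18 h and for CORI3 at 18 h. The black line leaves the orange ones at several points. Among these it lies above them at 3, 5 and 9 h for CORI3 and CLH1, and below them at 1 and 2 h for FAMT.

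Loss of DDE2 lowered every one of the 7 genes at every time point, and the size differed widely among them. VSP1 and VSP2 were nearly absent without DDE2, FAMT, TAT3 and CLH1 differed most at 1 or 2 h, and JR1 and CORI3 differed by less, most at 3 h. The question was how far each gene's transcript depended on the JA sector, and it was answered by comparing the 8 genotypes with DDE2 with the 8 with dde2-2, background by background.

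The storage protein gene VSP1 gave 6097 reads in the 168 libraries with DDE2 and 7 in the 168 with dde2-2, of which 164 had none. After scaling, the level was 870-fold higher with DDE2 (95% interval 422 to 2165, which covers counting error only). VSP2 gave 7047 reads with DDE2 and 22 with dde2-2, where 152 libraries had none, a ratio of 320 (211 to 511). At single time points VSP1 had no read in the 24 dde2-2 libraries at 0, 1, 2, 3 and 18 h, so that its ratio was at least 67.3 at 0 h and at least 549 at 3 h, against a floor of 3 reads over those libraries. Both genes failed the filter for the main test, which allowed fewer than 50 libraries without reads. They were tested instead by an exact two-sided sign-flip permutation test over the 8 backgrounds on log2 normalised counts with 0.5 reads added. VSP1 was higher with DDE2 in 8 of 8 backgrounds at each of the 7 time points, and so was VSP2. Each exact test gave p = 0.0078125, the smallest it can give. That value was unchanged by Benjamini-Hochberg adjustment over the 14 tests. The mean difference of VSP1 was 3.76 ± 0.68 (log2, SD over 8 backgrounds) at 0 h and 6.72 ± 0.81 at 3 h, and that of VSP2 was 5.54 ± 0.85 and 6.06 ± 1.14. As the dde2-2 level is near 0, those differences rest on the added 0.5 reads.

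The other 5 genes passed the filter and were tested with edgeR's quasi-likelihood test among 11848 genes, with Benjamini-Hochberg adjustment over all genes and time points of a comparison. A difference was called where the adjusted p was below 0.05 and the absolute log2 value above 1. All 35 combinations of the 5 genes with 7 time points were called higher with DDE2, against 1.60% of all combinations of genes and times.

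The methyltransferase gene FAMT had the highest estimate among the 5. At 1 h its 24 libraries with DDE2 ran from 5135 through a median of 7631 to 11093 normalised counts and the 24 with dde2-2 from 28.9 through a median of 60.0 to 123. The lowest library with DDE2 was far above the highest with dde2-2. The log2 difference was 6.93 ± 0.13 (SE, edgeR adjusted p = 8.4e-120). Before infiltration the 2 sets overlapped, from 142 through a median of 245 to 430.4 with DDE2 and from 35.8 through a median of 108 to 203 with dde2-2, a difference of 1.21 ± 0.14 (adjusted p = 7.3e-15). It was 5.09 ± 0.17 at 9 h and 2.34 ± 0.13 at 18 h.

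TAT3, of the tyrosine aminotransferase family, ran from 1290.5 through a median of 2929 to 7308 with DDE2 at 2 h and from 3.95 through a median of 33.2 to 188 with dde2-2, again with no overlap. The log2 difference was 6.31 ± 0.26 (SE, edgeR adjusted p = 1.6e-63). TAT3 libraries scattered widely within both sets. At 9 h libraries with DDE2 ran from 234 through a median of 1319 to 9798 and those with dde2-2 from 0 through a median of 23.8 to 522, and the libraries overlapped at 0, 9 and 18 h.

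CLH1, the chlorophyllase gene, ran from 232 through a median of 474 to 703 with DDE2 at 1 h and from 0 through a median of 5.73 to 13.4 with dde2-2. Several of the dde2-2 libraries held no read or few, and no library with DDE2 fell below them. The log2 difference was 6.60 ± 0.33 (SE, edgeR adjusted p = 1.9e-88), against 1.45 ± 0.13 at 0 h. Libraries overlapped only at 18 h among the 7 time points.

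CORI3, the cystine lyase gene, kept reads in every library without DDE2. At 3 h it ran from 756 through a median of 1373 to 2577 with DDE2 and from 80.8 through a median of 145 to 302 with dde2-2. The sets did not overlap from 1 to 5 h and did at 0, 9 and 18 h. The log2 difference rose from 1.34 ± 0.14 at 0 h to 3.22 ± 0.14 at 3 h (SE, edgeR adjusted p = 1.8e-55). The lectin gene JR1 followed the same order and ran from 376 through a median of 598 to 1388 at 3 h with DDE2 and from 8.91 through a median of 33.9 to 82.9 with dde2-2. Its difference was 1.11 ± 0.24 at 0 h and 4.26 ± 0.28 at 3 h (edgeR adjusted p = 4.2e-36), and libraries overlapped at 0, 1, 9 and 18 h.

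**Figure D2:**
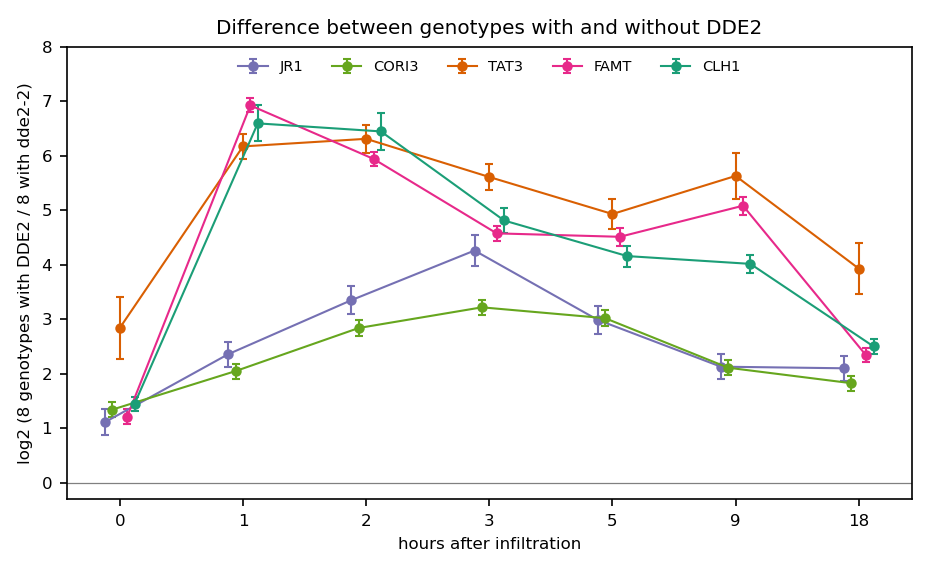
Log2 difference between the 8 genotypes with DDE2 and the 8 with dde2-2 against hours after infiltration (time points evenly spaced) for JR1, CORI3, TAT3, FAMT and CLH1, with SE bars from the edgeR fit. FAMT reaches 6.93 and CLH1 6.60 at 1 h, JR1 and CORI3 peak at 3 h, and each of the 35 points lies above 0.

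The summed level of the myrosin cell genes TGG1 and TGG2 also differed between the sets, with a median of 3476 with DDE2 (936 to 12061) and 1553 with dde2-2 (510.0 to 6818), while the 3 mesophyll genes had medians of 46942 and 51146. The part of that difference in the DDE2 effects was not tested. Of the 4 clock genes tested, 0 were called in either direction by edgeR's test of the DDE2 effect. Of all genes 4.40% were called higher and 1.77% lower at 1 or more time points, so nothing is read from those 4.

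Without DDE2 the genes moved in different directions after infiltration. Averaged over the 8 dde2-2 genotypes, CLH1, JR1, CORI3 and FAMT fell and TAT3 rose at the times called, and CLH1 fell furthest of the 5. This comparison was added after the values were seen. Its SE and p-values take the 24 libraries of a time point as independent. Same-numbered replicates deviated together within a time point (mean correlation 0.316), so both are likely too small. In the 30 combinations of 5 genes and 6 time points, 15 were called lower than at 0 h and 5 higher by edgeR, where 24.0% of all combinations were called lower and 20.3% higher.

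In jeps, CLH1 was at 282, 191 and 328 normalised counts at 0 h, at 13.4, 9.09 and 7.14 at 1 h and at 96.0, 154 and 150.0 at 18 h. Each library at 1 h was below each at 0 h, and those at 18 h lay in between. In jEPS it was at 106, 138 and 171 at 0 h, 12.7, 7.06 and 0 at 1 h and only 18.8, 1.61 and 20.8 at 18 h. Over the 8 genotypes the log2 change of CLH1 was -5.25 ± 0.33 at 1 h (SE, edgeR adjusted p = 7.7e-67), -5.43 ± 0.34 at 2 h and -1.45 ± 0.15 at 18 h, and its highest group mean was that of 0 h in 8 of 8 genotypes.

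JR1 and CORI3 were called lower at 2, 3 and 5 h. JR1 was 4.53-fold lower at 3 h than at 0 h (edgeR adjusted p = 1.8e-12) and 0.04 ± 0.25 log2 units from it at 9 h, where the value was -1.62 without replicate 2 and 1.03 without replicate 3. Its calls at 2 and 5 h were lost without replicate 3, where the values were -0.83 and -0.52. CORI3 changed by -1.64 ± 0.15 at 5 h and -0.44 at 18 h. FAMT reached its lowest at 9 h, -2.05 ± 0.18 (adjusted p = 7.9e-26), and was at -0.27 ± 0.14 at 18 h.

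TAT3 was the exception. In jEPS it was at 0, 3.53 and 4.17 at 0 h and 165, 88.2 and 317 at 1 h, with no overlap, but in jepS it was at 60.0, 4.62 and 11.8 at 0 h and 16.3, 0 and 41.4 at 1 h. Its group mean was above that of 0 h in 7 of the 8 genotypes at 1 h, in 5 at 2 h, in 8 at 3 h and in 4 at 18 h, and all libraries of a genotype lay above its 0 h libraries in 3 of the 8 at 1 h and 5 at 3 h. Over the dde2-2 genotypes its mean change was 3.03 ± 0.56 at 1 h (SE, edgeR adjusted p = 4.0e-12) and 2.62 ± 0.56 at 3 h. The call at 9 h, 1.63 ± 0.65, was lost with the replicate number as a block (adjusted p = 0.0561) and without replicate 2 or 3. Without replicate 2, jEps had no TAT3 read at 9 h, so that fit could not test the change. The call at 5 h, 1.86, was lost without replicate 2. The 0 h libraries with dde2-2 held 110 TAT3 reads in all, so the size of the rise is uncertain. VSP1 and VSP2 had too few reads with dde2-2 to follow over time.

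With DDE2 intact the time courses of the genes differed in shape. In 8 of 8 genotypes with DDE2 the highest group mean of FAMT and of TAT3 was at 1 h, and the lowest mean of FAMT and JR1 was that of 0 h. The lowest mean of TAT3 was at 0 h in 7 of the 8, that of VSP2 at 9 h in 7 of the 8, and that of CLH1 at 5 h in 5 of the 8. The highest mean of VSP1 came at 3 h in 4 of the 8 and that of CORI3 at 1 h in 4 of the 8, so neither had a shared peak. In JEPS, TAT3 went from 157, 31.6 and 111 at 0 h to 6969, 3946 and 7295 at 1 h and 3855, 2728 and 3258 at 3 h, every library after infiltration being above those before it. JR1 in JEPS was at 207, 229 and 468 at 0 h, 634, 376 and 555 at 3 h and 426, 575 and 385 at 18 h, which overlap. CORI3 in JEPS was at 800.0, 707 and 1026 at 0 h, 1037, 811 and 1744 at 3 h and 334, 620.3 and 350.0 at 18 h.

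The gain in the DDE2 effect after infiltration, the effect at each time minus that at 0 h, was called higher in 22 of 30 combinations by edgeR, against 1.35% of all combinations. FAMT gained 5.71 ± 0.19 at 1 h (SE, adjusted p = 8.5e-78) and 1.12 ± 0.19 at 18 h, and CLH1 5.15 ± 0.35 and 1.05 ± 0.19, and both were called at all 6 times, though at 18 h FAMT was not called without replicate 1 (0.88) and CLH1 not without replicate 2 (0.88). JR1 gained 3.15 ± 0.37 at 3 h (adjusted p = 2.1e-13) and CORI3 1.88 ± 0.20. JR1 was also called at 1, 2, 5 and 9 h, but at 9 h not without replicate 1 or 3 and at 1 h not without replicate 1, and its value at 18 h, 0.99 ± 0.33, was called with the replicate block (adjusted p = 0.0169). TAT3 gained 3.33 ± 0.61 at 1 h (adjusted p = 0.026) and 3.47 ± 0.63 at 2 h. The SE came from the fitted group means and not from the test, and it is small beside that p. Neither call held without replicate 1 or without replicate 2. TAT3 then had no read at 0 h in jEps or in jEPs, respectively, so those fits could not test the gain. The TAT3 value at 3 h, 2.77 ± 0.61, was not called (adjusted p = 0.0603) but was by DESeq2 (adjusted p = 2.2e-07) and limma-voom (3.1e-06).

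The same question was put to single genotypes: what DDE2 alone gives where the other 3 sectors are mutated, and what its loss takes from wild type. FAMT went in Jeps from 213, 196 and 171 at 0 h to 6910.5, 7110.0 and 5757 at 1 h, and in jeps from 176, 72.7 and 84.4 to 102, 118 and 114. Each Jeps library at 1 h was above each at 0 h, and the jeps libraries overlapped between the times. The response of Jeps exceeded that of jeps by 5.02 ± 0.53 log2 units (SE, edgeR adjusted p = 6.6e-13). In JEPS FAMT went from 314, 189 and 279 to 8514, 7715 and 5910.0, and in jEPS from 125, 127 and 83.3 to 63.6, 88.2 and 31.1, a difference of 5.71 ± 0.51 (adjusted p = 1.3e-17).

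CLH1 was at 249, 414 and 412 in Jeps at 2 h, and at 3.85, 11.8 and 6.59 in jeps, after 489, 443 and 379.6 and 282, 191 and 328 at 0 h. The difference of the responses was 4.81 ± 0.79 (SE, edgeR adjusted p = 5.2e-08). The Jeps libraries at the 2 times overlapped, and the jeps libraries did not. In the comparison of wild type with jEPS the value for CLH1 was 3.92 ± 0.75 at 1 h (adjusted p = 2.6e-05).

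Of 30 combinations, 10 were called higher in Jeps than in jeps, FAMT and CLH1 each from 1 to 9 h, against 0.194% of all combinations. In wild type against jEPS 9 were called, FAMT at 5 and CLH1 at 4 time points, against 0.239%. The calls of CLH1 in the second comparison at 2, 3 and 9 h, and that of FAMT at 5 h, were each lost without at least 1 of the replicates, as were those of CLH1 in the first at 5 and 9 h without replicate 3. CORI3 and JR1 were not called in these single comparisons, with 2.02 ± 0.56 (adjusted p = 0.112) and 3.60 ± 1.02 (adjusted p = 0.139) for Jeps against jeps at 3 h, and CORI3 was called there with the replicate block (adjusted p = 0.038). With the block within each time point both genes were called at 3 h in both comparisons, with adjusted p of 0.00347 for CORI3 and 0.00352 for JR1 in the first and of 0.00751 and 0.0224 in the second, and CORI3 also at 5 h. TAT3 was not called either. At 2 h it was at 1324, 1290.5 and 1445 in Jeps and 11.5, 3.95 and 13.2 in jeps, which do not overlap, but the difference of the responses was 4.86 ± 1.78 (adjusted p = 0.844), with 0 h levels of 15.8, 39.1 and 49.0 in Jeps and 26.5, 0 and 4.69 in jeps.

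The comparison of wild type with fls2 asked what flg22 perception adds to what infiltration and time give. The genes differed in direction at the time points called. CORI3, CLH1 and VSP1 rose in fls2 and responded lower in JEPS, while FAMT and TAT3 rose in both and responded higher in JEPS at the time points called. Of 30 combinations of the 5 genes, 10 were called lower in the response of JEPS than of fls2 and 4 higher by edgeR. Of all combinations 14.4% and 8.72% were called. The 4 called higher are close to that share, so their count is not read as a trait of the 5 genes.

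CORI3 was at 1012, 1006 and 1314 in fls2 at 0 h and at 8965, 12803 and 7196 at 9 h. In JEPS it was at 800.0, 707 and 1026 at 0 h and 743, 594 and 760.2 at 9 h. The fls2 libraries at 2, 3, 5 and 9 h lay above all 24 libraries of the 8 combinatorial genotypes with DDE2. The log2 change of CORI3 in fls2 was 3.12 ± 0.38 at 9 h (SE, edgeR adjusted p = 1.6e-11), in JEPS it was -0.28 ± 0.38, and the difference of the 2 was -3.39 ± 0.54 (adjusted p = 1.5e-07). It was called from 2 to 18 h, but at 2 h not without any 1 of the replicates, nor with TMM or DESeq2 size factors in place of the scaling. At 2 h these moved the median response of all genes, -0.30 on the log2 scale, by 0.28 and 0.26.

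CLH1 was at 443, 337 and 459 in fls2 at 0 h, 1651, 1258 and 2008 at 5 h and 2233, 1999 and 1865 at 9 h. In JEPS it went the other way, from 529, 414 and 558 at 0 h to 157, 218 and 144 at 5 h. The groups did not overlap from 2 to 18 h, and at 3, 5 and 9 h the fls2 libraries lay above all 24 combinatorial libraries with DDE2. The difference of the responses was -3.52 ± 0.49 at 5 h (SE, edgeR adjusted p = 1.3e-09). It was called from 2 to 18 h, and the call at 2 h was lost under the same settings as that of CORI3.

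VSP1 was tested in a second fit with a looser filter on libraries without reads, chosen after both storage protein genes failed the main one, which held 12296 genes. In fls2 it was at 17.4, 9.23 and 15.2 at 0 h, 150.0, 191 and 319 at 3 h and 133, 173 and 195 at 9 h, and every library from 1 to 18 h was above those at 0 h. Its change was called at all 6 times, with 3.91 ± 0.77 at 3 h (SE, edgeR adjusted p = 6.3e-07), where 11.4% of all combinations in that fit were called higher. In JEPS it was at 21.4, 11.8 and 81.6 at 0 h, 227, 44.7 and 123 at 3 h and 19.4, 0 and 15.0 at 18 h. It was called higher at 3 h, 1.61 ± 0.60, and lower at 18 h, -1.79 ± 0.87, against 22.1% and 25.8% of all combinations. The libraries at both times overlapped those at 0 h, and no replicate was left out in this fit. The difference of the responses was called lower at 1, 5, 9 and 18 h, against 14.2%, and was -3.77 ± 1.02 at 9 h (adjusted p = 0.00135). At 1 h the levels of the 2 genotypes overlapped. VSP1 held only 5, 2 and 4 reads in fls2 at 0 h and 3, 3 and 31 in JEPS, so the sizes of these values are uncertain.

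The response of VSP2, its neighbour, was called different from that in fls2 at 18 h alone of the 6 times. VSP2 was at 1382, 400.0 and 185 in fls2 at 18 h and at 53.2, 10.2 and 22.5 in JEPS, and at 0 h the values were 167, 254 and 94.9 and 100.0, 67.1 and 111. The fls2 libraries at 18 h spread widely, all above those of JEPS. The difference of the responses at 18 h was -3.68 ± 0.89 (SE, edgeR adjusted p = 5.2e-04). Within fls2 VSP2 was lower at 2 h, -1.63 ± 0.59, where 10.1% of combinations were called lower, and higher at 18 h, 1.96 ± 0.52. Within JEPS it was lower at 9 h, -2.15 ± 0.73, and at 18 h, -1.72 ± 0.72.

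FAMT rose in both genotypes and more with the receptor. At 1 h it was at 8514, 7715 and 5910.0 in JEPS and 3248, 2691 and 2008 in fls2, and at 2 h at 4359, 2525 and 1908 and 906, 634 and 1004. At both times the fls2 libraries lay below all 24 combinatorial libraries with DDE2. The change was 4.83 ± 0.33 in JEPS and 3.22 ± 0.33 in fls2 at 1 h, and the difference was 1.61 ± 0.46 (SE, edgeR adjusted p = 0.00465), and 1.92 ± 0.47 at 2 h (adjusted p = 6.3e-04). From 3 h on the difference was not called, with values from -0.78 to 0.11.

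TAT3 was at 6969, 3946 and 7295 in JEPS and 3185, 1139 and 2784 in fls2 at 1 h, and at 827, 1622 and 780.0 and 249, 122 and 138 at 18 h. The groups did not overlap at 1, 2, 3 and 18 h. The change at 1 h was 5.98 ± 0.62 in JEPS and 4.06 ± 0.59 in fls2. The difference was called at 2 h, 2.51 ± 0.86 (SE, edgeR adjusted p = 0.0212), and at 18 h, 3.19 ± 0.89 (adjusted p = 0.00349), and at 2 h not without replicate 1 or 3, nor in limma-voom with the sequencing lane (adjusted p = 0.115). It was 1.92 ± 0.86 at 1 h (adjusted p = 0.0906) and 1.80 ± 0.86 at 3 h (adjusted p = 0.119), and both were called with the replicate block within each time point (adjusted p = 0.00663 and 0.0104).

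JR1 was at 1102, 1407 and 1173 in fls2 and 391, 523 and 434 in JEPS at 9 h, with no overlap from 5 to 18 h. The difference of the responses was -1.92 ± 0.89 at 9 h and not called (SE, edgeR adjusted p = 0.107). With the replicate block within each time point it was called there (adjusted p = 0.00379) and at 5 h (adjusted p = 0.0193). Within fls2 JR1 rose at 3, 5 and 9 h, by 2.46 ± 0.63 at 9 h (adjusted p = 0.00145), and the calls at 3 and 5 h were lost without replicate 1. Its values at 1 and 18 h, 1.45 ± 0.64 and 1.57 ± 0.64, were called with the replicate block (adjusted p = 0.0413 and 0.0265).

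Counted over the 5 genes, 23 of 30 combinations were called higher than at 0 h in fls2, against 11.0% of all combinations, and 0 lower. In JEPS 11 were called higher and 4 lower, against 20.9% and 26.1%. The 11 were TAT3 at 6 and FAMT at 5 time points, and the 4 were CLH1. Without replicate 3 the rise of CORI3 at 1 h and that of CLH1 at 3 and 18 h in fls2 were not called, nor was the fall of CLH1 at 2 h in JEPS, which was also lost with TMM and with DESeq2 size factors. Without replicate 2 the rise of FAMT at 18 h in JEPS was not called, and without replicate 1 that of CLH1 at 18 h in fls2. The comparisons within JEPS share their 0 h libraries with the comparison against fls2. The sum of the 3 mesophyll marker genes also differed between these genotypes, with a median of 36946 in the 21 JEPS libraries (12852 to 251739) and of 104296 in the 21 fls2 libraries (44721 to 270711), and its part in these results was not tested.

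**Figure D3:**
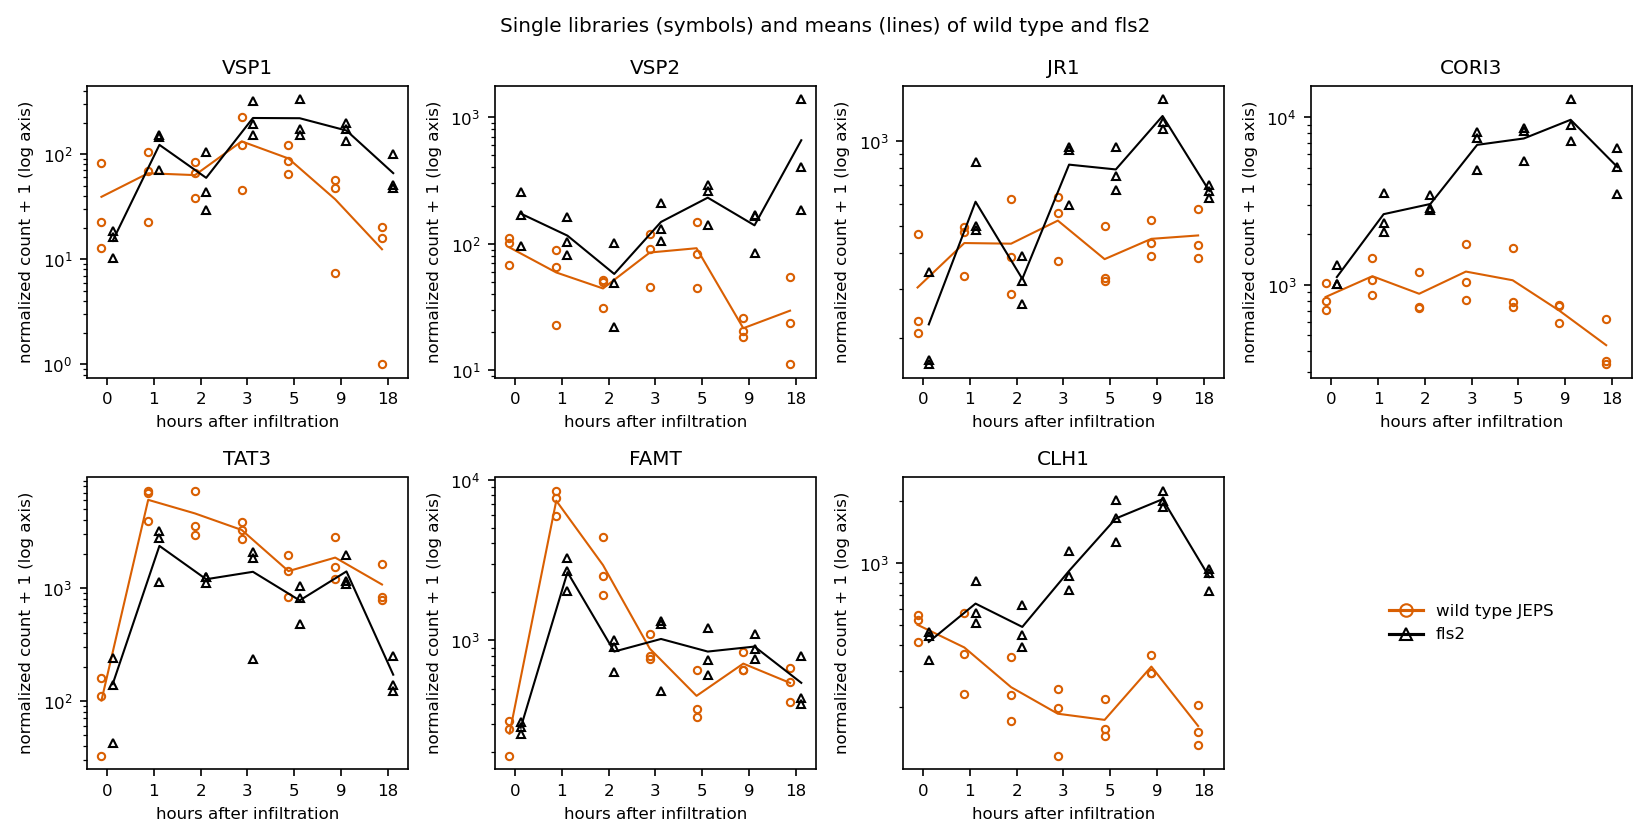
Normalised counts plus 1 (log axis) against hours after infiltration (time points evenly spaced) for each gene, with circles for the 3 JEPS libraries, triangles for the 3 fls2 libraries and lines for their means. The fls2 libraries lie above those of JEPS from 1 h for CORI3 and from 2 h for CLH1, and below them at 1 and 2 h for FAMT.

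The effect of the ethylene sector was measured as EIN2 intact against ein2-1 among the 8 genotypes with DDE2, 12 libraries on each side. Where it was called, the genes were lower with EIN2. The storage protein genes showed this over most of the time course, FAMT at 5 and 9 h, CORI3 at 18 h and TAT3 at 0 and 9 h. Of 35 combinations of the 5 genes, 5 were called lower and 0 higher by edgeR, against 1.36% of all combinations called lower.

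VSP2 at 18 h ran from 10.2 through a median of 55.6 to 124 with EIN2 and from 75.0 through a median of 296 to 643 with ein2-1. The libraries overlapped and the 4 group means on each side did not. The log2 difference was -2.36 ± 0.31 (SE, edgeR adjusted p = 2.2e-10, in the fit with the looser filter). VSP1 at 18 h ran from 0 through a median of 20.5 to 51.1 with EIN2 and from 10.2 through a median of 84.3 to 112 with ein2-1, a difference of -1.86 ± 0.37 (adjusted p = 2.2e-05). VSP2 was called lower from 1 to 18 h and VSP1 at 1, 3, 5, 9 and 18 h, where 1.54% of combinations in that fit were called lower. At 0 h the values were -0.11 ± 0.36 for VSP1 and -0.21 ± 0.29 for VSP2.

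FAMT at 9 h ran from 315 through a median of 545 to 1049 with EIN2 and from 636 through a median of 1297 to 2134 with ein2-1, with group means that did not overlap. The difference was -1.29 ± 0.16 (SE, edgeR adjusted p = 1.3e-11), and it was -1.21 ± 0.16 at 5 h and 0.21 ± 0.16 at 1 h. CORI3 at 18 h ran from 334 through a median of 630.0 to 1238 and from 712 through a median of 2154 to 3514, a difference of -1.42 ± 0.19 (adjusted p = 8.1e-10). TAT3 at 9 h ran from 234 through a median of 699.8 to 2852 and from 961 through a median of 1896 to 9798, a difference of -1.41 ± 0.28 (adjusted p = 4.1e-05). Its call at 0 h, -1.51 ± 0.44, was lost with limma-voom and without replicate 1 or 3. FAMT at 5 h fell short of the size required without replicate 3 (-0.97). The values of JR1 and CLH1 furthest from 0, -0.85 ± 0.31 at 9 h and -0.69 ± 0.17 at 18 h, were below that size as well.

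Among the 8 genotypes with dde2-2, 7 of 35 combinations were called lower with EIN2, against 1.58% of all combinations. CORI3 at 18 h ran from 87.7 through a median of 199 to 306 with EIN2 and from 256 through a median of 561 to 897 with ein2-1, and the difference was -1.52 ± 0.20 (SE, edgeR adjusted p = 3.1e-10). CLH1 at 18 h differed by -1.29 ± 0.23, and FAMT by -1.40 ± 0.22 at 3 h and -1.66 ± 0.28 at 5 h. FAMT was also called at 9 h, -1.09 ± 0.29, though not without replicate 3 (adjusted p = 0.0567). TAT3 was called at 5 and 9 h, -1.71 ± 0.49 and -1.70 ± 0.78. The call at 9 h was lost without each of the replicates in turn and with the replicate block (adjusted p = 0.0548), and that at 5 h without replicate 2.

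The EIN2 effect itself was compared between the 2 sets of genotypes. The difference was called by edgeR in 0 of 35 combinations, against 0.0229% of all combinations called higher and 0.0470% lower, and 6 of the 35 had an unadjusted p under 0.05. DESeq2 and limma-voom also called 0, and limma-voom with the sequencing lane as a term called 1, CLH1 at 5 h with -1.16 in the edgeR fit. For CORI3 at 18 h the difference was 0.10 ± 0.28, and for FAMT at 9 h it was -0.21 ± 0.34. At 2 h FAMT had a difference of 0.95 ± 0.26 (adjusted p = 0.162).

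Among the 5 genes, the calls for PAD4 and SID2 all fell on TAT3. With DDE2 intact, TAT3 at 18 h ran from 123 through a median of 792 to 1695 with PAD4 and from 3.41 through a median of 118 to 594 with pad4-1. The libraries overlapped. The log2 difference was 2.53 ± 0.32 (SE, edgeR adjusted p = 1.6e-10), the only 1 of 35 combinations called, against 0.555% of all combinations called higher. At the other 6 time points TAT3 was higher with PAD4 by 0.72 to 1.09 and not called. VSP2 went the other way in the fit with the looser filter, with -1.25 ± 0.29 at 0 h and -1.12 ± 0.31 at 18 h, where 0.0395% of combinations were called lower. VSP1 was not called, with values from -0.68 to -0.32.

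With dde2-2, in a comparison added after the TAT3 values were seen, TAT3 at 18 h ran from 18.9 through a median of 94.1 to 339 with PAD4 and from 0 through a median of 4.04 to 32.5 with pad4-1. At 9 h the values ran from 12.5 through a median of 86.8 to 522 and from 0 through a median of 4.24 to 37.5. Group means did not overlap at 18 h. TAT3 held few reads there with pad4-1, 1, 0 and 1 in jEpS, 0, 9 and 6 in jepS, 0, 1 and 0 in jEps and 1, 5 and 0 in jeps. The size of the difference at 18 h is therefore uncertain. The difference was 4.10 ± 0.87 at 18 h (SE, edgeR adjusted p = 8.2e-10) and 1.97 ± 0.37 at 1 h, and TAT3 was called at the 6 times from 1 to 18 h. These were the 6 calls of 35, against 1.40% of all combinations called higher.

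**Figure D4:**
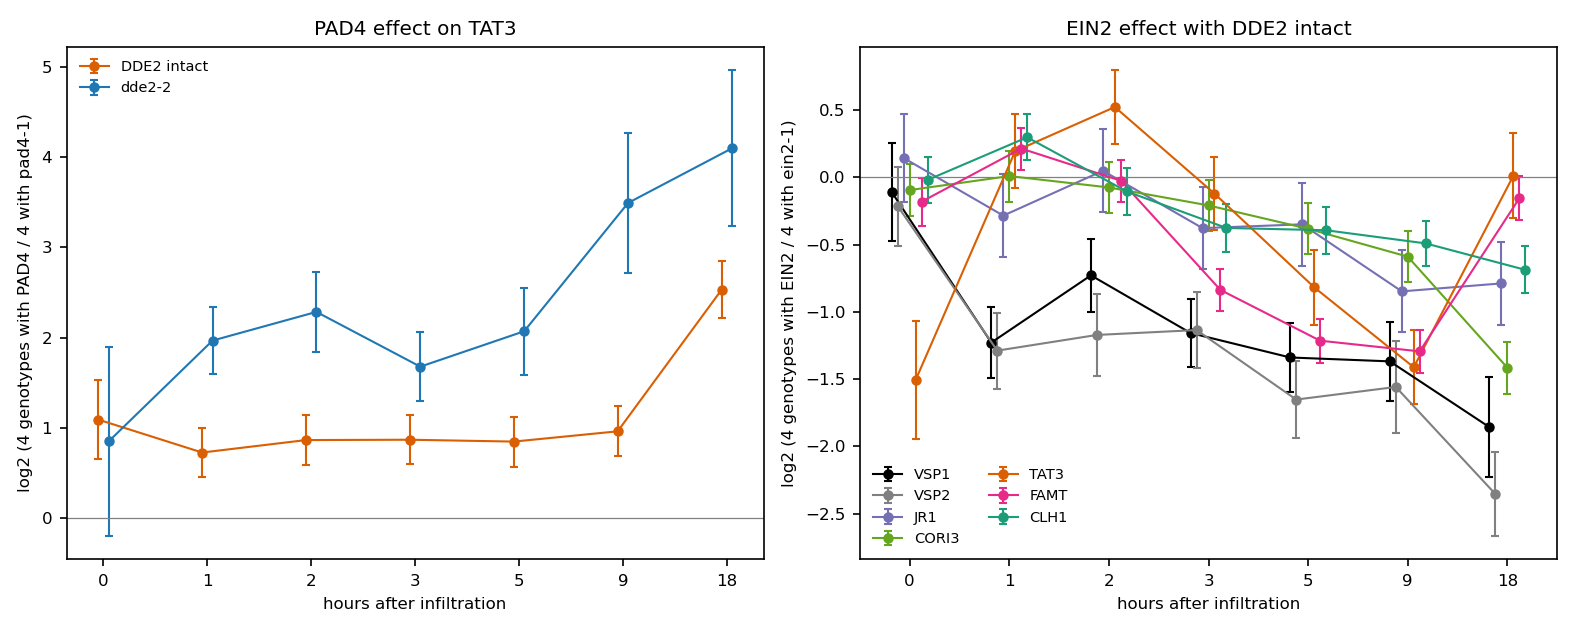
Left, log2 difference of TAT3 between 4 genotypes with PAD4 and 4 with pad4-1, in orange with DDE2 and in blue with dde2-2, and right, that of each gene between 4 genotypes with EIN2 and 4 with ein2-1, all with DDE2, both with SE bars against hours after infiltration (time points evenly spaced). TAT3 reaches 4.10 with dde2-2, where the pad4-1 libraries held few reads, and 2.53 with DDE2 at 18 h. In the right panel VSP2 is lowest, -2.36 at 18 h.

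Whether the PAD4 effect differed between the sets was tested directly. The difference for TAT3 was -2.53 ± 0.83 at 9 h (SE, edgeR adjusted p = 0.107) and -1.57 ± 0.92 at 18 h, and 0 of 35 combinations were called, with 7 at an unadjusted p under 0.05, against 0.0121% of all combinations called higher and 0.0386% lower. DESeq2's Wald test called 1, TAT3 at 9 h, as did the replicate block within each time point (adjusted p = 0.0176), and limma-voom called 0. The call at 9 h thus depended on the method.

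SID2 intact against sid2-2, with DDE2, gave 2 calls of 35, both for TAT3 and both higher, against 0.795% of all combinations. TAT3 at 18 h ran from 137 through a median of 687 to 1695 with SID2 and from 3.41 through a median of 112 to 1211 with sid2-2, a difference of 2.06 ± 0.32 (SE, edgeR adjusted p = 7.6e-08), and it was 1.23 ± 0.28 at 9 h. In limma-voom with the sequencing lane the value at 9 h was 0.93, below the size required. With dde2-2 edgeR called 0 of 35, with 6 at an unadjusted p under 0.05, against 0.139% of all combinations called higher and 0.0663% lower, and DESeq2 called 1, TAT3 at 9 h, and limma-voom 1, CLH1 at 18 h. The TAT3 value there was 2.01 ± 0.78 at 9 h (adjusted p = 0.0872), which was called with the replicate block within each time point (adjusted p = 0.0444).

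Other genes of the JA pathway, from lists of known members, give the setting of the DDE2 effect. All 10 JA synthesis genes tested were called higher with DDE2 at 1 or more time points by edgeR, 49 of their combinations with time, and so were 7 of 7 tested JAZ repressors, 36 combinations, where 4.40% of all genes were called higher at 1 or more time points. The median log2 DDE2 effect was 1.98 over the synthesis genes and 1.49 over the repressors, against -0.03 over all genes. LOX2, the lipoxygenase that feeds AOS in leaves, differed by 4.86 ± 0.11 at 3 h, and AOC1, an allene oxide cyclase gene, by 3.66 ± 0.10 at 1 h. AOS is DDE2 itself, so its difference is the mutation. Of 3 tested genes for COI1 and the MYC factors, 1 was called higher, and both tested genes of 8 listed further MYC-branch outputs were. Of 7 genes of the ethylene-dependent ERF branch 1 was tested, and it was called higher with EIN2 in 6 combinations and with DDE2 in 1. Of all combinations 1.10% were called higher with EIN2 and 1.60% with DDE2, and 1 gene does not stand for the branch. With EIN2, 2 of the 10 synthesis genes and 1 of the 7 repressors were called lower and 0 higher at any time, against 6.18% of all genes called lower. In the response of JEPS against fls2, 6 of the 10 synthesis genes were called lower and 3 higher, 1 of them in both directions, and 3 of the 7 repressors lower and 2 higher, at 1 or more time points. Of all genes 30.9% were called lower and 18.8% higher in that way, and the median of the synthesis genes was -0.20 where that of all genes was -0.14, so nothing is read from these counts. Since 0 h, 9 of the 10 synthesis genes rose at 1 or more time points in fls2 and 8 in JEPS, where 1 other fell. Of all genes 27.4% rose in fls2, and 36.4% rose and 46.6% fell in JEPS at 1 or more time points. The median change over those genes was 1.65 in fls2 and 1.22 in JEPS.

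The 7 genes were compared with each other and with all tested genes by the correlation of group mean log2 levels over the 119 groups, which is a description only, as the groups share genotypes, and those with low levels share the dde2-2 allele. Over all groups VSP1 and VSP2 had r = 0.959, and TAT3 and FAMT 0.859. Over the 56 groups of the combinatorial genotypes with DDE2 the values were lower, 0.623 for VSP1 and VSP2, 0.829 for TAT3 and FAMT, and -0.27 for TAT3 and CLH1. For each member, the 3 genes most like it over the 119 groups were named, with r over the 56 groups in brackets. For VSP1 they were TSA1, 0.965 (0.815), BGLU18, 0.945 (0.719), and NSP1, 0.930 (0.846). For VSP2 they were BGLU18, 0.947 (0.776), TSA1, 0.943 (0.562), and AT1G52000, 0.906 (0.518). JR1 was most like LOX2, 0.963 (0.682), TSA1, 0.937 (0.778), and BGLU18, 0.934 (0.547), so VSP1, VSP2 and JR1 shared 2 of their 3. CORI3 was most like AT2G43550, 0.935 (0.758), LOX2, 0.931 (0.676), and AT2G43530, 0.926 (0.598). TAT3 was most like AT3G51450, 0.889 (0.874), AT2G39420, 0.884 (0.906), and TRX5, 0.834 (0.863), none of which was named for another member. FAMT was most like AOS, which is DDE2 itself, 0.935 (0.903), ILL6, 0.919 (0.972), and TIFY7, the gene of JAZ9, 0.889 (0.815). The value of AOS over the 119 groups includes the groups in which that gene was mutated. CLH1 was most like JAZ3, 0.948 (0.749), PGIP2, 0.930 (0.357), and AT1G52000, 0.928 (0.622).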

How the data were processed

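Stranded 3′ Tag-Seq libraries of 357 leaf samples were analysed. The deposited read counts per gene were made by the authors. By the study's methods they mapped the tags with Bowtie 0.12.8 to the transcripts of TAIR10 and kept reads that mapped to 1 gene. They deposited raw counts without normalisation. Counts of a library were scaled by the 90th percentile count of its genes with reads, relative to 300. The filter was that of the study's methods, genes with reads missing in fewer than 50 libraries and a 15th highest count above 25. It left 11848 genes, fewer than the study gives, for a reason not known, and the adjusted p-values and shares of all genes of the main tests rest on these. A gene-wise negative binomial model with 1 term per group was fitted with edgeR 4.0.16 (R 4.3.3), with the scaling as offset, and each comparison was a contrast of group terms in the quasi-likelihood F-test. The SE of a contrast came from the fitted group means and not from that test, so SE and p can disagree where groups held few reads. P-values were adjusted by Benjamini-Hochberg over all genes and times of a comparison. A gene was called at an adjusted p below 0.05 and an absolute log2 value above 1. The looser filter for VSP1 and VSP2 dropped the limit on libraries without reads and held 12296 genes. These contrasts were computed in Python 3.11.15 (numpy 2.4.6, scipy 1.17.1, pandas 2.3.3, matplotlib 3.10.9) and checked against edgeR's own function on 180 tests, where log10 p differed by at most 0.000488, and were tested on simulated data.

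Alternatives were TMM and DESeq2 size factors, no filter, the Wald test of DESeq2 1.42.0, limma-voom (limma 3.58.1) with and without the sequencing lane, of which there were 23, replicate blocks, Storey q-values and leaving out each replicate. Same-numbered replicates share experiments in the infiltration schedule if its numbers are those of the labels, which the labels do not state and which was assumed. Their deviations from the group means correlated with a mean of 0.0994 over all pairs of groups and 0.316 within a time point, where 942 of 952 pairs exceeded 0.1, against -0.0470 and -0.15 for other numbers. Each library pooled plants of several experiments, so p-values measure the spread between such pools. No 2 libraries were identical, the highest correlation of any pair being 0.974.

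The genes named are the 7 members, the mutated genes, the 3 tested genes most like each member, and genes from the lists of the JA pathway, the clock and cell types. The members and lists were chosen with earlier results of these data known.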

Additional observations from a re-analysis of the deposited data

Results flagged for a closer look

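Differences between the effects of a pair of genotypes or of sets of genotypes were flagged where the test of the difference itself called them with edgeR, and for each gene the time with the largest called value is given. Groups held 3 libraries, too few to look for single libraries that stood apart. The responses of JEPS and fls2 differed for CORI3 at 9 h by -3.39 on the log2 scale, for CLH1 at 5 h by -3.52, for TAT3 at 18 h by 3.19 and for FAMT at 2 h by 1.92. In the fit with the looser filter they differed for VSP1 at 18 h by -4.01 and for VSP2 at 18 h by -3.68, with SE of 1.19 and 0.89. VSP1 held 5, 2 and 4 reads in fls2 at 0 h and 4, 0 and 6 in JEPS at 18 h, so the size of its value is uncertain.

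The responses of the genotypes with DDE2 and with dde2-2 differed for FAMT at 1 h by 5.71, for CLH1 at 1 h by 5.15, for TAT3 at 2 h by 3.47, for JR1 at 3 h by 3.15 and for CORI3 at 3 h by 1.88. In Jeps against jeps the difference was 5.02 for FAMT at 1 h and 4.81 for CLH1 at 2 h. In JEPS against jEPS it was 5.71 for FAMT at 1 h and 3.92 for CLH1 at 1 h. The TAT3 value at 2 h was the only one of the 13 values of the other 5 genes whose call was lost without 1 replicate. It was lost without replicate 1 or without replicate 2. Those fits could not test it, as a dde2-2 group then had no TAT3 read at 0 h.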

How the results depend on the processing

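Of 192 counts of calls under an alternative, 179 were within 1.5 times the main count. Of 1028 single values 988 kept their direction and their side of the threshold, 6 were no longer called, 34 became called and 0 changed direction. Apart from the exact tests, each single value was that of the time with the largest absolute log2 value of a gene and comparison. Such values are less likely to lose a call or change direction, and calls at other times were lost as given above. Storey q-values leave the log2 value as it is and cannot change its direction. The DDE2 effect on the level was called in 35 of 35 combinations under every alternative run. The cause of the changes below was not tested, beyond the number of genes or samples that an alternative itself changes.

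Without a filter on low counts, calls went from 10 to 17 for Jeps against jeps, from 1 to 2 for PAD4 with DDE2, from 0 to 2 for SID2 with dde2-2, and from 0 to 5 for the difference of the PAD4 effect. In that fit 1 spread was shared by all genes. With the sequencing lane in limma-voom, SID2 with DDE2 had 1 call in place of 2, and the difference of the EIN2 effect 1 in place of 0. For SID2 with dde2-2 DESeq2's Wald test, limma-voom and the replicate block within each time point gave 1 call each in place of 0, and for the difference of the PAD4 effect DESeq2's Wald test and the block within each time point gave 1 each. Leaving out a replicate gave 3 to 6 calls for EIN2 with DDE2 (5 with all 3, and 3 without replicate 3) and 1 to 2 for PAD4 with DDE2. It gave 11 to 13 for JEPS against fls2 (14) and 17 to 21 for the DDE2 effect on the response (22). For EIN2 with dde2-2 it gave 5 to 8 (7) and for JEPS against jEPS 6 to 7 (9). The DDE2 effect on the response of TAT3 could not be tested without replicate 1 or 2, as given above.

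With the replicate number as a block, the pairing left the counts of calls within 1.5 times those of the main fit. It called JR1 in fls2 at 1 and 18 h, JR1 in the DDE2 response at 18 h and CORI3 in Jeps against jeps at 3 h, where the main fit did not, ended 2 calls of TAT3, at 9 h with dde2-2, and changed no other call of the 5 genes. The block within each time point called 18 in place of 14 combinations for JEPS against fls2, 13 in place of 10 for Jeps against jeps and 12 in place of 9 for JEPS against jEPS, and all of the main calls were among them. A TMM scaling moved the median of all genes by over 0.1 in 14 comparisons and times, by 0.14 to 0.42, and DESeq2 size factors in 9, by -0.13 to 0.37. VSP1 and VSP2 had 30 calls of 78 with the looser filter and 34 without any, 30 of them shared. No other alternative was run for these calls. At 1 to 11.1 normalised counts per read, differences among the dde2-2 genotypes could not be resolved for VSP1 and VSP2.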
